A study of Mus musculus with 12 samples.

Results

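The MEF2 family of transcription factor genes was followed across RAW 264.7 cells given a mimic of miR-223, an inhibitor of miR-223 or a control oligonucleotide. A row of the array table, called a transcript cluster, was taken when its only gene symbol was Mef2a, Mef2c or Mef2d. This gave 4 of 41345 clusters: 1 for Mef2a (17491979), 2 for Mef2c (17288917 and 17294682) and 1 for Mef2d (17398970), and the Mef2c clusters were kept apart. The family was chosen by the measured levels of the Mef2c clusters in the 3 groups, so Mef2c is described without a test. All 4 clusters passed the filter on low values, a mean above log2 2.01 over the 12 arrays, which left 15458 clusters with a single symbol for testing. Clusters that shared a symbol with a second gene were not used. They were both clusters of Mef2b (with Borcs8) and a further cluster of Mef2d (with 1700113A16Rik).

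RAW 264.7 is an adherent mouse macrophage-like line transformed by the Abelson leukaemia virus. All cells were grown to confluency before transfection, which lasted 48 h. The groups were pre-miR-223 (a mimic), anti-miR-223 (an inhibitor) and an irrelevant scramble, with 4 arrays each, titled as biological replicates. The labels do not say whether the replicates came from separate cultures, so the p-values measure the spread between these arrays, which may be technical. The only cluster annotated to Mir223 also carries the symbol F630028O10Rik and was not used. Uptake of the oligonucleotides was not checked here.

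MEF2 proteins are MADS-box transcription factors that bind A/T-rich DNA as dimers. Class IIa histone deacetylases hold them in a repressed state, and calcium and MAP kinase signals release or activate them, so that their targets in muscle, neurons, lymphocytes and macrophages are transcribed. Mef2c is a reported target of miR-223 in mouse granulocyte progenitors, where the microRNA restrains it. A microRNA of this kind lowers its targets through short sites, usually in the 3′ part of the mRNA, that pair with its seed.

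The mature strands of miR-223 are printed because miR-223 is what the mimic and the inhibitor are directed at, with the seed (bases 2 to 8) in capitals. The sequences are from RefSeq (GRCm38.p6). The 3p strand lies at chrX:96242884-96242905 and the 5p strand at chrX:96242842-96242864, both on the plus strand. Each seed occurred in 1 of the 1738 mature mouse microRNAs of the RefSeq table, that strand itself.
mmu-miR-223-3p: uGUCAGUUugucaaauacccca
mmu-miR-223-5p: cGUGUAUUugacaagcugaguug
A site for the 3p seed would hold the letters AACTGAC. Whether Mef2 transcripts carry it was not analysed here.

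Start-site windows are printed for Mef2a and Mef2c because clusters of these genes had correlated values across the 12 arrays, given below as a description. Each window runs from 250 bases before to 50 bases after an annotated start (RefSeq, GRCm38.p6). The Mef2a window is chr7:67372809-67373108 on the minus strand. The Mef2c window is chr13:83503784-83504083 on the plus strand, the most upstream of 3 listed for this gene. Capitals mark a match to the consensus MEF2 motif.
Mef2a: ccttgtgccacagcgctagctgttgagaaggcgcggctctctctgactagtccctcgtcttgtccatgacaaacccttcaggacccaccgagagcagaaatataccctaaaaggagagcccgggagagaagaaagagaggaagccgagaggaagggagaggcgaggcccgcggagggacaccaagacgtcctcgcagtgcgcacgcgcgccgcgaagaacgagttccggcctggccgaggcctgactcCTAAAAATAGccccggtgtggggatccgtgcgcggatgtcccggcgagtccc
Mef2c: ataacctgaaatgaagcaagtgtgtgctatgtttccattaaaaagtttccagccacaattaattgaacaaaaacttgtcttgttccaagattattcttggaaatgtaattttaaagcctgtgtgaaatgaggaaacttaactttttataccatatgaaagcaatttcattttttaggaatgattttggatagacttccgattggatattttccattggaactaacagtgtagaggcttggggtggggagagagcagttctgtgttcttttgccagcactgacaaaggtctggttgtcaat
The Mef2a window held 1 match, CTAAAAATAG, which begins 2 bases before the annotated start. The letters match on both strands and were counted once. None of the 3 Mef2c windows and neither the Mef2d window nor the Mef2b window held these letters. Of all 32851 windows in the table, 1047 (3.19%) held a match, so the match in Mef2a is a description and not a mapped site. GC content was 62.3% in the Mef2a window, 72.0% in the Mef2d window, and 35.7%, 47.0% and 48.3% in the Mef2c windows.

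One array, anti-miR-223 replicate 4, was unlike the rest. It correlated with the others at a median r of 0.961 across tested clusters, where the remaining 11 had 0.984 to 0.991. In it 774 clusters (5.01%) deviated more than 2-fold from the mean of the 12 arrays, and no other array had more than 101 (0.653%). Its small nucleolar RNAs (76 clusters) had a median deviation of -1.40, against -0.13 to 0.35 elsewhere. Differences, list medians and correlation counts that this array moves by over 1.5 times or to the other sign are given with and without it. Macrophage markers were present: 8 of 9 had a mean of log2 5 or more, up to 11.19 for Lyz2, and the exception was Mertk (2.42). None of the markers of B cells (9 with a cluster), muscle (10), neutrophils (8), fibroblasts and endothelium (8) or neurons (6) reached that level. B cells and muscle are known for Mef2c expression, and the mean level of the 9 B cell clusters lay at 1.76 to 1.97 with pre-miR-223, 1.80 to 2.00 with anti-miR-223 and 1.82 to 1.87 with scramble. The 11 muscle clusters averaged 2.29 to 2.39 with pre-miR-223, 2.15 to 2.52 with anti-miR-223 and 2.27 to 2.49 with scramble. In bulk RNA of this kind, fewer cells with a transcript and less transcript per cell cannot be told apart.

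Mef2a encodes a widely expressed MEF2 factor, best known from muscle and heart. Its log2 signal was 7.99, 8.10, 7.80 and 7.84 in pre-miR-223 replicates 1 to 4, 7.80, 7.77, 7.98 and 8.66 with anti-miR-223, and 8.19, 8.11, 7.83 and 7.96 with scramble. The groups overlapped throughout, and the single high value was anti-miR-223 replicate 4. Group means were 7.93 ± 0.14 with pre-miR-223, 8.05 ± 0.42 with anti-miR-223 and 8.02 ± 0.16 with scramble (SD, n = 4 each). The order pre-miR-223, scramble, anti-miR-223 was not separated by the spread at either step. When replicate 4 was left out, the anti-miR-223 mean was 7.85 ± 0.11 (SD, n = 3), the lowest of the 3 groups.

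Mef2c encodes the family member with roles in myeloid and lymphoid progenitors and in heart and bone. In cluster 17288917 its log2 signal was 6.76, 6.95, 6.81 and 6.59 with pre-miR-223, 6.76, 6.65, 6.87 and 7.50 with anti-miR-223, and 6.89, 7.04, 6.76 and 6.84 with scramble. As for Mef2a, anti-miR-223 replicate 4 was the highest array and the groups overlapped. Means were 6.78 ± 0.15 with pre-miR-223, 6.94 ± 0.38 with anti-miR-223 and 6.88 ± 0.12 with scramble (SD, n = 4 each). The 12-array range, 0.91 on the log2 scale, was a 1.87-fold span.

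Cluster 17294682, also annotated to Mef2c, behaved differently. Its log2 signal was 8.69, 7.47, 8.33 and 8.58 with pre-miR-223, 8.15, 8.24, 7.75 and 4.19 with anti-miR-223, and 6.65, 5.95, 8.28 and 7.84 with scramble. Here anti-miR-223 replicate 4 was the lowest array, scramble replicates 1 and 2 were the next lowest, and the groups overlapped. The range over the 12 arrays was 4.50 (22.6-fold), and 13 of the 15458 tested clusters had a larger SD over the arrays (1.32 for this cluster, against a median of 0.20). On the 11 arrays without anti-miR-223 replicate 4 the SD was 0.84, and 0.259% of clusters exceeded it. The SD of cluster 17288917 was 0.23, exceeded by 33.9% of tested clusters. Means of cluster 17294682 were 8.27 ± 0.55 with pre-miR-223, 7.08 ± 1.94 with anti-miR-223 and 7.18 ± 1.07 with scramble (SD, n = 4 each), and 8.05 ± 0.26 with anti-miR-223 without replicate 4 (SD, n = 3). Signals of different clusters come from different probes, so levels are not compared between clusters.

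Mef2d encodes a MEF2 factor known from lymphocytes, neurons and muscle. Its log2 signal was 7.04, 7.04, 6.81 and 6.53 with pre-miR-223, 7.00, 6.99, 7.12 and 6.90 with anti-miR-223, and 7.16, 7.20, 7.02 and 6.98 with scramble. Pre-miR-223 replicate 4 was the lowest array, and anti-miR-223 replicate 4 lay among the others. Means were 6.85 ± 0.24 with pre-miR-223, 7.00 ± 0.09 with anti-miR-223 and 7.09 ± 0.11 with scramble (SD, n = 4 each), and neighbours in this order overlapped.

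**Figure D1:**
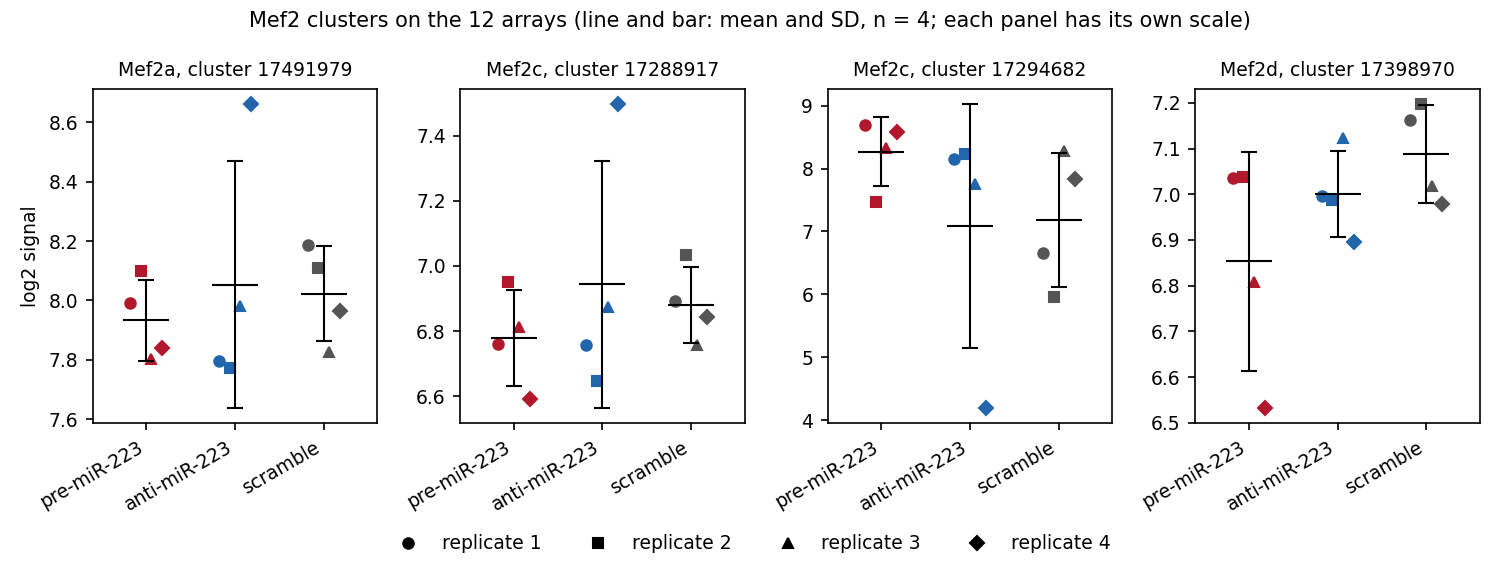
Log2 signal (vertical axis, a separate scale per panel) of the 4 Mef2 clusters on each array, by group, with marker shape for the replicate number and bars for mean and SD (n = 4). Anti-miR-223 replicate 4 is the highest array for Mef2a and Mef2c 17288917 and the lowest, at 4.19, for Mef2c 17294682.

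The effect of added miR-223 was examined by comparing pre-miR-223 with scramble. The clusters of Mef2a and Mef2d did not pass limma's test over all clusters, where 0 of 15458 (0%) were called at an adjusted p under 0.05 and 778 (5.03%) had an unadjusted p under 0.05. Mef2a differed by -0.09 (95% CI -0.46 to 0.28, adjusted p = 0.966 by limma). Mef2d differed by -0.24 (-0.50 to 0.02, adjusted p = 0.891 by limma). Leaving out pre-miR-223 replicate 4 gave -0.13 for Mef2d, and leaving out replicate 2 of that group gave -0.30. The median over all tested clusters was -0.05, and 63.7% of them were lower with pre-miR-223. For Mef2c, cluster 17288917 differed by -0.10 (-0.45 to 0.24) and cluster 17294682 by 1.09 (-0.56 to 2.73). Without anti-miR-223 replicate 4, which narrows the spread shared by all groups, the intervals were -0.33 to 0.12 and 0.23 to 1.94; 9.79% of all clusters then had an unadjusted p under 0.05 and none was called. The sign of the difference in 17294682 was opposite to that in the other 3 clusters, although with cyclic loess scaling Mef2a (0.028) and Mef2c 17288917 (0.01) also came out above 0. The groups did not overlap for 2.98% of tested clusters and for 0 of the 4 Mef2 clusters.

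The loss of miR-223 activity was examined by comparing anti-miR-223 with scramble. Limma called 0 of 15458 clusters (0%), with 294 (1.9%) at an unadjusted p under 0.05. Mef2a differed by 0.03 (95% CI -0.34 to 0.40, adjusted p = 1 by limma) and Mef2d by -0.09 (-0.35 to 0.17, adjusted p = 1 by limma). Mef2c 17288917 differed by 0.06 (-0.28 to 0.41) and Mef2c 17294682 by -0.10 (-1.75 to 1.55). The signs of 3 of these differences turned when anti-miR-223 replicate 4 was left out, and 6.35% of all clusters then had an unadjusted p under 0.05, with none called. On the 11 arrays Mef2a differed by -0.17 (-0.42 to 0.08, adjusted p = 0.746 by limma), Mef2c 17288917 by -0.12 (-0.36 to 0.12) and Mef2c 17294682 by 0.87 (-0.06 to 1.79), while Mef2d was at -0.05 (-0.32 to 0.22). The groups did not overlap for 1.53% of tested clusters (6.46% on 11 arrays) and for 0 of the 4 Mef2 clusters.

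Mimic and inhibitor were also compared with each other, where 0 of 15458 clusters (0%) were called and 614 (3.97%) had an unadjusted p under 0.05. Pre-miR-223 minus anti-miR-223 was -0.12 for Mef2a (95% CI -0.49 to 0.25, adjusted p = 0.941 by limma) and -0.15 for Mef2d (-0.41 to 0.11, adjusted p = 0.933 by limma). It was -0.17 (-0.51 to 0.18) for Mef2c 17288917 and 1.18 (-0.46 to 2.83) for Mef2c 17294682. With anti-miR-223 replicate 4 left out, the values were 0.08 for Mef2a, -0.18 for Mef2d, 0.02 for Mef2c 17288917 and 0.22 for Mef2c 17294682, and 4.84% of all clusters had an unadjusted p under 0.05, with none called. Mef2d was -0.04 without pre-miR-223 replicate 4. The groups did not overlap for 1.71% of tested clusters (4.8% on 11 arrays) and for 0 of the 4 Mef2 clusters. Over the 3 comparisons the intervals for Mef2a and Mef2d ran from -0.50 to 0.40 on the log2 scale. A 2-fold change, 1 on that scale, lay outside them. The intervals of the Mef2c clusters are descriptions, and no such reading is drawn from them.

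**Figure D2:**
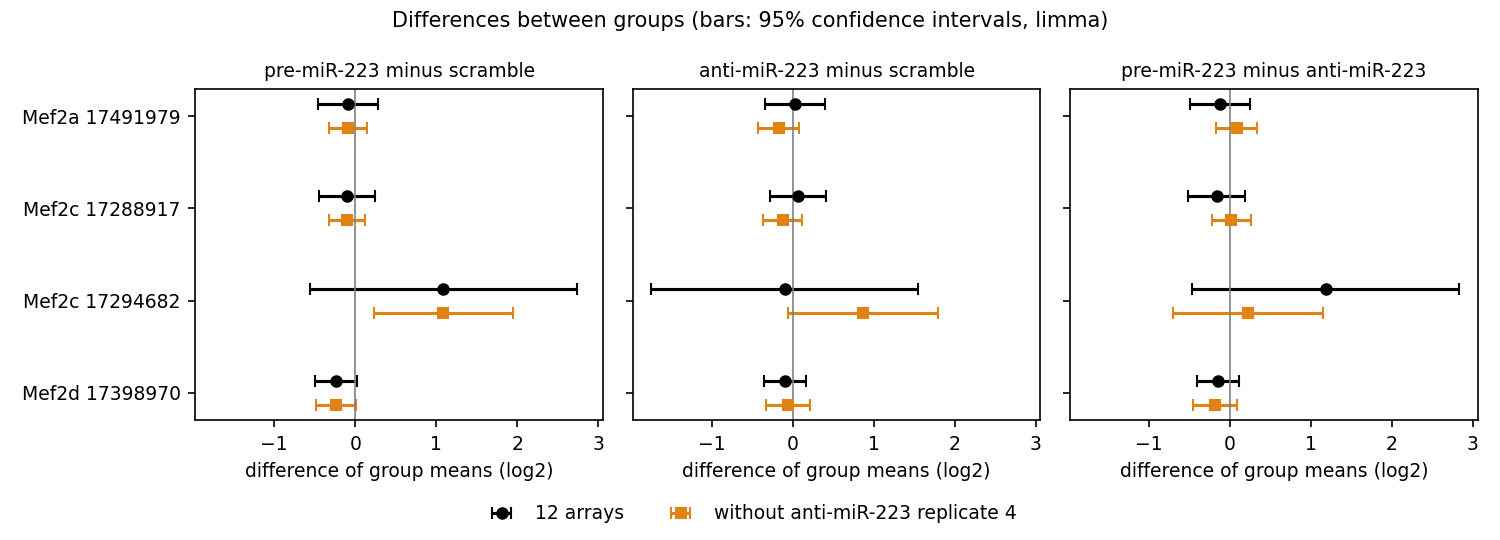
Differences of group means (log2, horizontal axis) for the 4 Mef2 clusters in the 3 comparisons, with 95% confidence intervals from limma, over 12 arrays (black) and without anti-miR-223 replicate 4 (orange). The interval of Mef2c 17294682 for pre-miR-223 minus scramble runs from -0.56 to 2.73 over 12 arrays and from 0.23 to 1.94 without that array. Mef2c intervals are descriptions without a test. With or without that array, 0 of 15458 clusters were called in this comparison.

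The clusters were then set against each other across arrays. The pairs that hold a Mef2c cluster are descriptions. Mef2a and Mef2c 17288917 had Pearson r = 0.934 and Spearman rho = 0.846 over 12 arrays, and r = 0.775 over the 11 arrays without anti-miR-223 replicate 4. With the 2 arrays farthest from the Mef2a median left out, replicate 1 of scramble and replicate 4 of anti-miR-223, r was 0.813. Mef2a and Mef2c 17294682 had the opposite sign, with r = -0.920 and rho = -0.671 over 12 arrays, r = -0.769 and rho = -0.573 over 11, and r = -0.696 without the 2 arrays just named. Taken as deviations from the group means over 12 arrays, r was 0.934 between Mef2a and Mef2c 17288917 and -0.939 between Mef2a and Mef2c 17294682 (rho = -0.853).

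The Mef2c clusters had r = -0.938 and rho = -0.839 over 12 arrays, and r = -0.821 without anti-miR-223 replicate 4. Taken as deviations from the group means, r was -0.945, so the opposition was present between replicates within groups. Mef2d was less closely tied to the others over 12 arrays, with r = 0.204 to Mef2a, 0.247 to Mef2c 17288917 and -0.268 to Mef2c 17294682. They were 0.604, 0.726 and -0.647 when anti-miR-223 replicate 4 was left out. The Mef2a and Mef2d pair holds no Mef2c values and was tested. Its unadjusted permutation p was 0.469 over 12 arrays and 0.0367 without anti-miR-223 replicate 4. Of the other tested clusters, 49.8% correlated with Mef2a at least as strongly as Mef2d did over 12 arrays. Without that array the share was 17.8%, so a correlation of this size with Mef2a was not particular to Mef2d. Adjusted over the 5 pairs computed, the permutation p was 0.469 and 0.0422. The other pairs in that adjustment hold Mef2c values, which chose the family. All adjusted values of this pair therefore depend on Mef2c and are descriptions. The rank correlation of that pair was 0.455 over 12 arrays (adjusted permutation p = 0.141) and 0.745 over 11 (adjusted permutation p = 0.0197). With scramble replicate 1 left out as well, r was 0.545 over 10 arrays (adjusted permutation p = 0.0949) and rho was 0.673 (adjusted 0.0641). As deviations from the group means over 12 arrays the 3 correlations of Mef2d were 0.131, 0.155 and -0.067.

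These relations have to be read against the other clusters on the same arrays. Over all 12 arrays, 1.24% of the other tested clusters correlated with Mef2a at least as strongly as Mef2c 17288917 did, and 0.349% ran as strongly against it as Mef2c 17294682 did. Without anti-miR-223 replicate 4 these shares were 4.67% and 0.763%. A first principal component held 51.9% of the variance between arrays, with 20.1% of tested clusters at an absolute r of 0.8 or more with it. Along this component r was 0.943 for Mef2a, 0.973 for Mef2c 17288917, -0.970 for Mef2c 17294682 and 0.300 for Mef2d. With anti-miR-223 replicate 4 left out of the correlation, r was 0.825, 0.919, -0.916 and 0.741. The component itself was computed on all 12 arrays, where that array scored 59.0, and was not refitted. The part of this shared axis in the relations between Mef2 clusters was not tested. The median deviation of small nucleolar RNAs, a further measure of the arrays, had r = -0.927 with Mef2a, -0.897 with Mef2c 17288917, 0.893 with Mef2c 17294682 and 0.105 with Mef2d over 12 arrays. Over the 11 arrays that leave out anti-miR-223 replicate 4, r was -0.780 with Mef2a, -0.544 with Mef2c 17288917, 0.722 with Mef2c 17294682 and -0.122 with Mef2d. The r values with both array measures are descriptions.

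**Figure D3:**
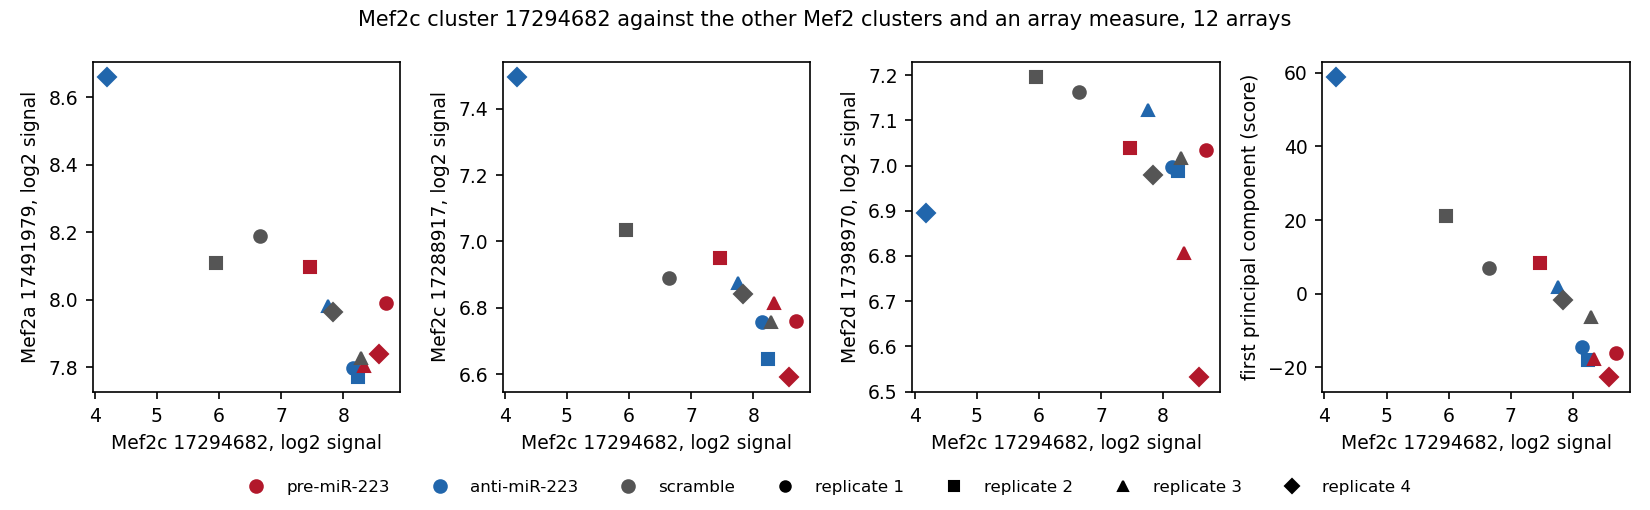
Log2 signal of Mef2c 17294682 (horizontal axes) against that of Mef2a, Mef2c 17288917 and Mef2d and against the array score on the first principal component (vertical axes), 1 point per array with colour for the group and shape for the replicate. Mef2a, Mef2c 17288917 and the score decline as Mef2c 17294682 rises (r = -0.920, -0.938 and -0.970 over 12 arrays), while Mef2d has r = -0.268, or -0.647 without anti-miR-223 replicate 4.

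The Mef2c clusters also differed in where their identifiers stand. Cluster positions and strands are not given in the sources used here. Of the 20 named clusters nearest in identifier to 17288917, 14 belonged to a gene with a RefSeq start-site entry, and 13 of the 14 were on the plus strand, the strand of Mef2c. Of those nearest to 17294682, all 15 with an entry were genes of chromosome 13 on the minus strand. For Mef2a 16 of 18 and for Mef2d 13 of 13 were on the gene's own strand. Among 11917 tested clusters that could be scored, 427 (3.58%) had at least 80% of their neighbours on the strand opposite to their gene, and Mef2c 17294682 was 1 of them. Of the other 426, 104 (24.4%) had r of 0.8 or more with Mef2c 17294682 and 4 (0.939%) had r of -0.8 or less. Of the 11490 remaining clusters, 143 (1.24%) and 1721 (15.0%) did so. With Mef2c 17288917 the pattern was turned round: 4 (0.937%) of 427 had r of 0.8 or more and 87 (20.4%) had -0.8 or less, against 2033 (17.7%) and 144 (1.25%) of 11489. Without anti-miR-223 replicate 4, 80 (18.8%) of the 426 and 76 (0.661%) of the 11490 had r of 0.8 or more with Mef2c 17294682, and 9 (2.11%) and 631 (5.49%) had -0.8 or less. With Mef2c 17288917, 9 (2.11%) of the 427 and 931 (8.1%) of the 11489 then had r of 0.8 or more, and 46 (10.8%) and 64 (0.557%) had -0.8 or less. These counts were made after the values were seen and are descriptions. It was not tested whether 17294682 reads the sense strand of Mef2c, and its values are therefore uncertain as a measure of Mef2c mRNA.

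**Figure D4:**
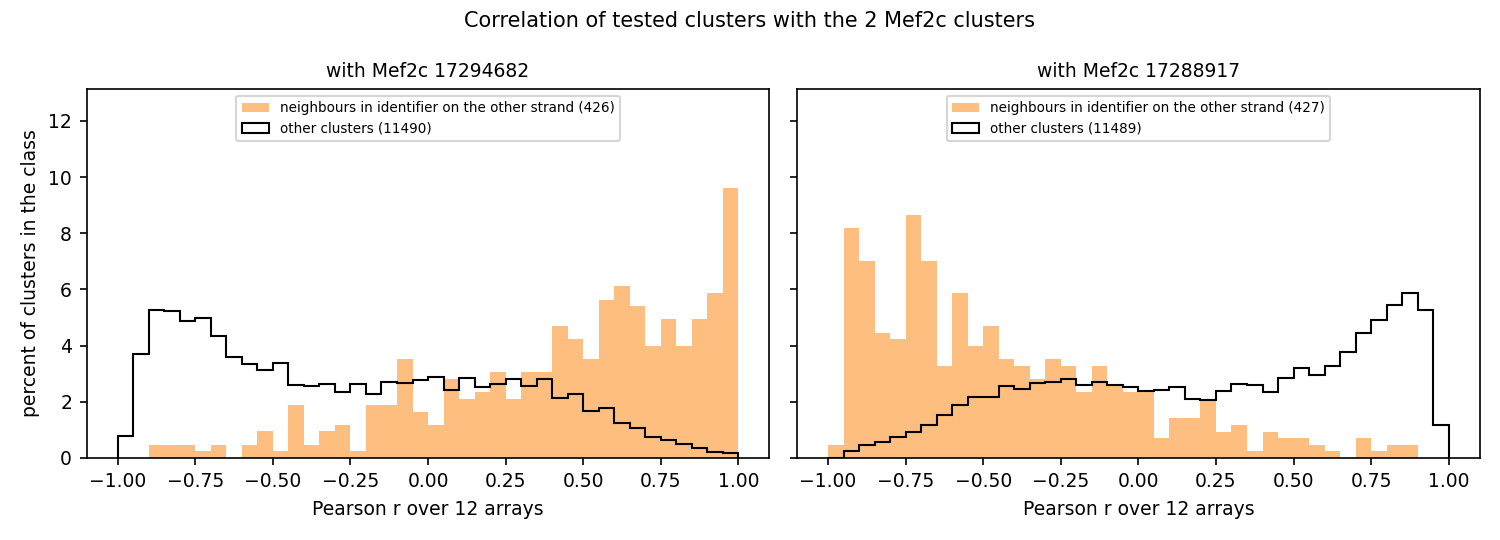
Percent of clusters (vertical axis) by Pearson r over 12 arrays (horizontal axis) with Mef2c 17294682 and with Mef2c 17288917, for clusters whose identifier neighbours lie mostly on the strand opposite to their gene (filled) and for the other clusters (line). With 17294682 the medians of r were 0.55 for the filled class and -0.31 for the other clusters; with 17288917 they were -0.54 and 0.31.

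Opposed clusters of a gene were not confined to Mef2c. Among 621 genes with a pair of tested clusters the median r was -0.123, and 5 pairs had an r as low as that of Mef2c or lower. Over the 11 arrays that leave out anti-miR-223 replicate 4 the median was -0.101, and 16 pairs were at or below the Mef2c value of -0.821. Both Mef2c clusters had a mean above log2 5. Among the 109 pairs with both clusters at log2 5 or more, the median r over 12 arrays was -0.247. Of these 109, 5 were at or below the Mef2c value over 12 arrays and 9 over 11. The 5 pairs were Arsb (-0.968), Tubb5 (-0.965), Tmed10 (-0.959), Hnrnpul1 (-0.953) and Mef2c itself. In Arsb, Hnrnpul1 and Mef2c, 1 of the clusters had its neighbours on the strand opposite to the gene, and in Tubb5 and Tmed10 neither had. Among the pairs whose neighbours could be scored the median r was -0.138 for the 325 with such a cluster and -0.129 for the 135 without, or -0.130 and -0.093 without anti-miR-223 replicate 4.

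The clusters most like each Mef2 cluster were named by Pearson r over the 12 arrays, without a test. Each r belongs to the named gene's single cluster and need not hold for other clusters of that gene. A further Arpc5 cluster, 17218254, had r = -0.861 with Mef2c 17294682. The cluster pairs of Hnrnpul1, Slain2 and Aldh2 had r of -0.953, -0.932 and -0.929 with each other. Pairs of the other genes named below are not given. Closest to Mef2c 17294682 were Chd3, a chromatin remodeller (0.994), Arpc5, a subunit of the actin-nucleating Arp complex (0.994), Alox5, the lipoxygenase of leukotriene synthesis (0.993), Hspa8, a constitutive heat-shock protein (0.993), and Hnrnpul1, an RNA-binding protein (0.992). Each of these 5 had r of 0.980 to 0.986 without anti-miR-223 replicate 4, and those of Arpc5, Alox5 and Hnrnpul1 were clusters with neighbours on the opposite strand. The neighbours of the Chd3 and Hspa8 clusters could not be scored. Most opposed to it were Rpl3, a ribosomal protein (-0.991), Cd81, a tetraspanin (-0.983), and Rsu1 (-0.982). Closest to Mef2c 17288917 were Anxa5, annexin A5 (0.986), Supt7l (0.983), the dynactin subunit gene Dctn4 (0.980), Ticrr, a replication initiation factor (0.980), and Wars, tryptophanyl-tRNA synthetase (0.979), while Slain2 (-0.965), Aldh2 (-0.964) and a further cluster of Hspa8, 17548379 (-0.960), were most opposed. Closest to Mef2a were Dph6 (0.982), the RNA-binding protein genes Celf1 (0.975) and Spats2 (0.975), Vps33b (0.975) and the elongation factor gene Supt5 (0.975), while Taf1d (-0.967), Eny2 (-0.964) and Ep400 (-0.951) were most opposed. Closest to Mef2d were Fbrsl1 (0.940), Mllt1, a super elongation complex protein (0.938), Cdk5rap3 (0.933), Ndst2 (0.923) and Rusc2 (0.923), and most opposed were Slc25a48 (-0.876), Fhad1 (-0.868) and Ufsp1 (-0.860).

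Of the 15457 other tested clusters, 2120 (13.7%) had r of 0.8 or more with Mef2a, 2477 (16.0%) with Mef2c 17288917, 406 (2.63%) with Mef2c 17294682 and 190 (1.23%) with Mef2d. Clusters with r of -0.8 or less numbered 359 (2.32%), 381 (2.46%), 2104 (13.6%) and 36 (0.233%) in the same order. The counts at 0.8 or more without anti-miR-223 replicate 4 were 526 (3.4%), 1135 (7.34%), 231 (1.49%) and 616 (3.99%), and those at -0.8 or less were 59 (0.382%), 164 (1.06%), 790 (5.11%) and 119 (0.77%). The counts for Mef2d were higher without that array, and those for the other 3 clusters were lower.

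Class IIa deacetylases and corepressors bind MEF2 proteins and silence their targets. Of 8 genes, 6 were tested: Hdac4, Hdac5, Hdac7 and Hdac9, the class IIa enzymes, Hdac3, a class I enzyme that works in their complexes, and Cabin1, a calcineurin-binding corepressor of MEF2. With pre-miR-223 against scramble 5 of 6 were lower and 1 higher, and none passed the test. The median difference was -0.30, against -0.05 over all tested clusters, of which 63.7% were lower. Hdac5 had 5.69 ± 0.21 with pre-miR-223 and 6.06 ± 0.20 with scramble (SD, n = 4 each), a difference of -0.37 (95% CI -0.66 to -0.09, adjusted p = 0.891 by limma). Cabin1 had 4.55 ± 0.17 with pre-miR-223 and 4.90 ± 0.09 with scramble. It differed by -0.35 (-0.63 to -0.06, adjusted p = 0.891 by limma), and its groups did not overlap, as for 2.98% of all clusters. Hdac3 differed by -0.26 (-0.49 to -0.02, adjusted p = 0.891 by limma). These 3 had an unadjusted p under 0.05, against 5.03% of all clusters. With anti-miR-223 against scramble 5 of 6 were lower (median -0.09, against -0.01 over all clusters, of which 52.7% were lower) and none passed. All 6 were lower without anti-miR-223 replicate 4 (median -0.14, against -0.05). Hdac4 was at -0.24 (-0.65 to 0.17), or -0.41 without that array, Hdac5 at -0.12 and Hdac3 at -0.10. Between pre-miR-223 and anti-miR-223 5 of 6 were lower (median -0.14, against -0.04 over all clusters, of which 61.4% were lower). It was 3 of 6 without anti-miR-223 replicate 4 (median -0.05, against -0.01). Cabin1 was at -0.27, or -0.14 without that array, Hdac5 at -0.25 and Hdac3 at -0.15.

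Kinases and phosphatases that signal to MEF2 include the p38 and ERK5 cascades, calcineurin, calcium/calmodulin-dependent kinases and the kinases that export class IIa deacetylases from the nucleus. Of 24 genes, 20 were tested and none passed in any comparison. With pre-miR-223 against scramble 4 were higher and 16 lower (median -0.08), where 63.7% of all tested clusters were lower (median -0.05). Camk2d, a calmodulin-dependent kinase, differed by -0.32 (95% CI -0.61 to -0.04, adjusted p = 0.891 by limma), Sik1, a salt-inducible kinase, by -0.33 (-0.67 to 0.01) and Map2k3, which phosphorylates p38, by -0.17 (-0.41 to 0.07). With anti-miR-223 against scramble 7 were higher and 13 lower (median -0.05), where 52.7% of all tested clusters were lower (median -0.01). Without anti-miR-223 replicate 4, 1 was higher and 19 lower (median -0.14), against a median of -0.05 over all tested clusters. Map2k3 had 6.88 ± 0.18 with anti-miR-223 and 7.13 ± 0.14 with scramble (SD, n = 4 each), a difference of -0.25 (-0.49 to -0.01, adjusted p = 1 by limma). Mapk7, the gene of ERK5, differed by -0.17 (-0.42 to 0.09) and Sik1 by -0.20 (-0.54 to 0.14), or -0.35 without that array. Between pre-miR-223 and anti-miR-223 4 were higher and 16 lower (median -0.04), where 61.4% of all tested clusters were lower (median -0.04). Without anti-miR-223 replicate 4, 16 were higher and 4 lower (median 0.05), against a median of -0.01 over all tested clusters. Mapk11, a p38 kinase gene, differed by -0.51 (-1.10 to 0.07) or -0.25 without that array, Camk2d by -0.23, and Camk1d by -0.18 or 0.02 without that array.

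Coactivators and partners of MEF2 include the acetyltransferases Ep300 and Crebbp and the NFAT factors. Of 16 genes, 14 were tested and none passed in any comparison. With pre-miR-223 against scramble 4 were higher and 10 lower (median -0.16), where 63.7% of all tested clusters were lower (median -0.05). Cited2, a coactivator-binding protein, differed by -0.30 (95% CI -0.56 to -0.03, adjusted p = 0.891 by limma), Nfatc2, a calcineurin-responsive factor, by -0.23 (-0.46 to -0.01, adjusted p = 0.891 by limma) and Kat2b, an acetyltransferase, by -0.24 (-0.50 to 0.01). With anti-miR-223 against scramble 6 were higher and 8 lower (median -0.03), where 52.7% of all tested clusters were lower (median -0.01). Without anti-miR-223 replicate 4, 4 were higher and 10 lower (median -0.16), against a median of -0.05 over all tested clusters. Cited2 was at -0.19, Vgll4 at 0.16 and Kat2b at -0.13, or -0.19 for Kat2b without that array. Between pre-miR-223 and anti-miR-223 3 were higher and 11 lower (median -0.11), or 7 and 7 without anti-miR-223 replicate 4 (median 0.01), with Smad2, a TGF-beta signal transducer, at -0.26 (-0.51 to -0.01, adjusted p = 0.933 by limma), Nfatc2 at -0.23 and Maml1 at 0.21.

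Reported MEF2 targets were gathered from several tissues, and 16 clusters of 15 genes were tested out of 18 genes. None passed in any comparison, and the list medians were -0.07 for pre-miR-223 against scramble, -0.01 for anti-miR-223 against scramble and -0.01 for pre-miR-223 against anti-miR-223. The corresponding counts were 5 higher and 11 lower, 7 and 9, and 8 and 8. Over all tested clusters the medians were -0.05, -0.01 and -0.04, and 63.7%, 52.7% and 61.4% were lower. Without anti-miR-223 replicate 4 the median was -0.04 for anti-miR-223 against scramble (6 higher and 10 lower) and 0.01 for pre-miR-223 against anti-miR-223 (9 and 7). The medians of all tested clusters were then -0.05 and -0.01. Irf8, a transcription factor of monocyte development, had a pair of clusters that disagreed. Cluster 17548703 had 5.62 ± 0.74 with pre-miR-223 and 4.45 ± 0.43 with scramble (SD, n = 4 each), a difference of 1.17 (95% CI 0.24 to 2.09, adjusted p = 0.891 by limma), whereas cluster 17506279 differed by -0.13 (-0.40 to 0.15, adjusted p = 0.921 by limma). Across the 12 arrays Irf8 17548703 had r = 0.902 with Mef2c 17294682, against -0.028 for Irf8 17506279, both as descriptions. Against anti-miR-223, pre-miR-223 differed by 0.99 (0.07 to 1.91) in Irf8 17548703, or 0.54 without anti-miR-223 replicate 4. Jun, an AP-1 gene that MEF2C drives in stimulated macrophages, had 6.41 ± 0.50 with anti-miR-223 and 6.10 ± 0.25 with scramble (SD, n = 4 each), a difference of 0.31 (-0.14 to 0.76) that was 0.07 without anti-miR-223 replicate 4. In that comparison Il10 differed by -0.13, or -0.05 without that array, and Nr4a1, an orphan nuclear receptor gene, by -0.14, or -0.24 without it. Arc differed by -0.23 with pre-miR-223 against scramble. Between pre-miR-223 and anti-miR-223 Il10 differed by 0.24 and Arc by -0.26, or -0.13 for Arc without that array.

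**Figure D5:**
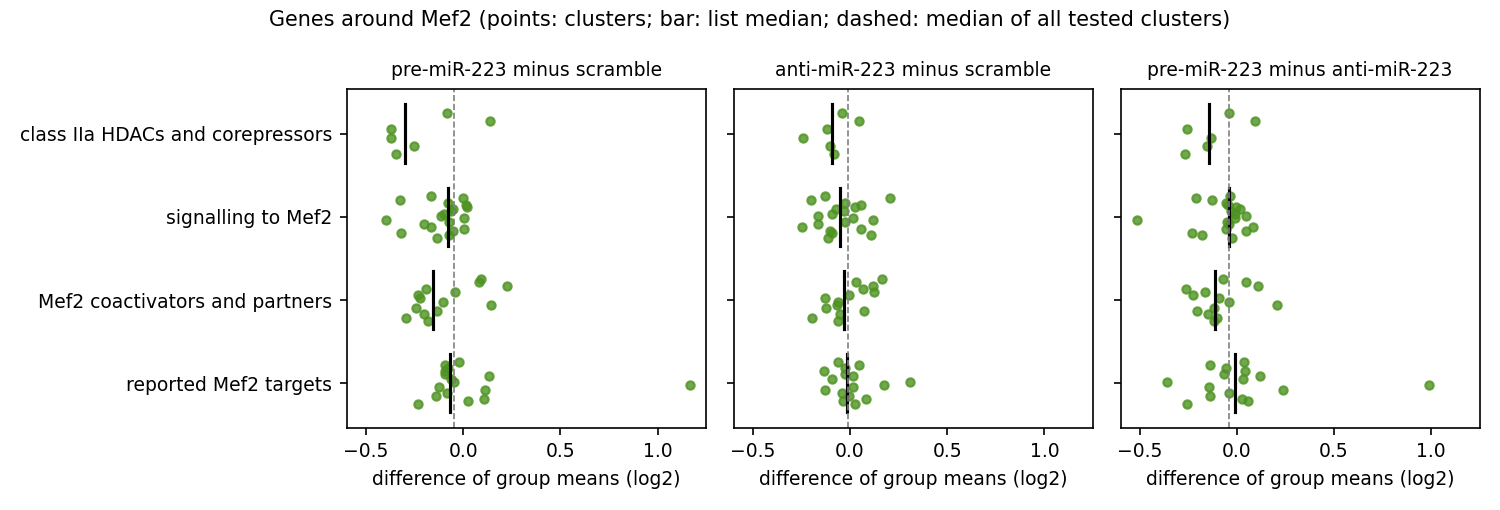
Differences of group means (log2, horizontal axis) of the tested clusters in 4 lists of genes around MEF2, with the list median as a bar and the median of all tested clusters as a dashed line. The point at 1.17 for pre-miR-223 minus scramble and at 0.99 for pre-miR-223 minus anti-miR-223 is Irf8 17548703.

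The 54 distinct clusters of these lists were also set against the Mef2 clusters across arrays. With Mef2c 17288917, 13 (24.1%) had r of 0.8 or more and 1 (1.85%) had -0.8 or less, against 16.0% and 2.46% of all other tested clusters. With Mef2a, 11 (20.4%) had r of 0.8 or more, against 13.7%, and with Mef2d 2 (3.70%), against 1.23%. With Mef2c 17294682, 10 (18.5%) had r of -0.8 or less, against 13.6%, and 1, Irf8 17548703, had 0.8 or more. Ep300 had r = 0.954 with Mef2c 17288917 and -0.939 with Mef2c 17294682, and Crebbp had r = 0.904 with Mef2a. Ep300 and Crebbp were chosen after their values were seen. Without anti-miR-223 replicate 4, r of 0.8 or more was found for 6 list clusters (11.1%) with Mef2a, against 3.4% of all others, for 4 (7.41%) with Mef2c 17288917, against 7.34%, and for 3 (5.56%) with Mef2d, against 3.99%. With Mef2c 17294682, 5 (9.26%) then had -0.8 or less, against 5.11%. These shares are descriptions of arrays that have a common axis and carry no test.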

How the data were processed

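Expression was measured on 12 Affymetrix whole-transcript arrays, 4 per group. The authors deposited a table of log2 signals for 41345 transcript clusters; RMA, Partek and Affymetrix Expression Console are listed in the submitters' processing notes, without versions or roles. The base of the logarithm was taken as 2, as RMA gives it. No genome build is given in the sources used here. Of the clusters, 23521 had a single gene symbol in GEO's platform annotation, 1814 had several and 16010 had none. Single-symbol clusters were tested where their mean exceeded log2 2.01, the 40th percentile of the table: 15458 clusters of 14611 symbols.

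One limma model (lmFit and eBayes, limma 3.58.1, R 4.3.3) held the 12 arrays without covariates, leaving 9 residual degrees of freedom. Its 2-sided p-values were adjusted by Benjamini-Hochberg over all tested clusters, with a threshold of 0.05. The fit was tested on simulated data. Correlations had 2-sided permutation p-values from 100000 resamples (numpy 2.4.6, Python 3.11.15), adjusted over 5 pairs. Those of pairs with a Mef2c cluster are not given, because Mef2c values chose the family. They still enter the adjustment for the Mef2a and Mef2d pair. Motifs were searched on both strands.

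The members, gene lists and tests were chosen with earlier results of these data known. Named genes were the members, the 3 members of each list with the smallest p per comparison, and the 5 clusters most like and 3 most opposed to each Mef2 cluster, leaving out predicted, olfactory and small RNA genes. Ep300 and Crebbp, and the same-gene pairs, were named after their values were seen. Precision is limited by the number of arrays. The scaling, filter, weights, block and leave-out alternatives are given in the closing section.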

Additional observations from a re-analysis of the deposited data

Results flagged for a closer look

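Mef2c 17294682 in anti-miR-223 replicate 4 had a log2 signal of 4.19, against 7.75 to 8.24 in the other 3 anti-miR-223 arrays. The gap to the nearest of them was 0.88 of the range of the 4 arrays, above Dixon's 95% critical value for 4 samples. That value served only as a rule for flagging. Mef2c values chose the family, so the flag is a description and not a test. The signal of 4.19 was the only value flagged among the 12 sets of 4 arrays examined (4 clusters in 3 groups), and chance flags about 1 set in 20. The same array had the lowest small nucleolar RNA median, -1.40, and the highest score on the first principal component, 59.0, against -22.7 to 21.1 in the other 11; their part in the low value was not tested.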

How the results depend on the processing

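The 12 differences of the Mef2 clusters were recomputed under 9 alternatives of scaling, filter, weighting and design, and with each of the 12 arrays left out. No cluster of the table was called in any comparison under any of them. Mef2a changed sign for pre-miR-223 against scramble with cyclic loess (0.028). Array weights turned it between anti-miR-223 and scramble (-0.083) and between mimic and inhibitor (0.023). The weight of anti-miR-223 replicate 4 was 0.17, against 0.71 to 2.47 for the other arrays. Without that array the same differences were -0.172 and 0.082. The cause was not tested. Leaving out single arrays gave Mef2a -0.15 to -0.03, -0.172 to 0.125 and -0.214 to 0.082 in the 3 comparisons (mimic against scramble, inhibitor against scramble, mimic against inhibitor), Mef2d -0.30 to -0.13, -0.13 to -0.05 and -0.21 to -0.04, Mef2c 17288917 -0.16 to -0.04, -0.12 to 0.16 and -0.26 to 0.02, and Mef2c 17294682 0.68 to 1.45, -0.51 to 0.87 and 0.22 to 1.57. The sign change of Mef2a for anti-miR-223 against scramble came when scramble replicate 3 was left out (-0.034) and when anti-miR-223 replicate 4 was (-0.172). Correlations of Mef2d with Mef2a, Mef2c 17288917 and Mef2c 17294682 were larger without anti-miR-223 replicate 4 (0.604, 0.726 and -0.647). The unadjusted permutation p of the Mef2a pair, the only one used as a test, was then 0.0367. On those arrays 17.8% of the other tested clusters correlated with Mef2a at least as strongly as Mef2d did. The list medians between pre-miR-223 and anti-miR-223 turned to 0.053 (signalling), 0.007 (partners) and 0.013 (targets) without that array. This alternative, and the counts by correlation without that array, were added after seeing the data. A replicate block cannot move differences of group means in this balanced design (Mef2a stays at -0.09 for pre-miR-223 against scramble). With it 594, 253 and 463 clusters had an unadjusted p under 0.05, against 778, 294 and 614 without it. Deviations of same-numbered arrays had no common sign, with r of -0.562 to 0.475. This range does not settle whether the numbers pair the arrays. The counts at an unadjusted p under 0.05 ran from 345 to 1685, 224 to 981 and 315 to 1276 with single arrays left out. They reached 2076, 642 and 907 with array weights. Over the other alternatives Mef2c 17288917 ran from -0.13 to 0.01, -0.05 to 0.11 and -0.18 to -0.04, and Mef2c 17294682 from 0.94 to 1.20, -0.11 to 0.37 and 0.57 to 1.27. Keeping 1 cluster per symbol dropped Mef2c 17288917, so that alternative gave it no value.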
